A study of Mus musculus with 37 samples.

Results

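The genes described here are 31 subunits of the receptors for glutamate and GABA, measured in astrocytes isolated from the mouse cortex. They were chosen by symbol, as a named list of 4 AMPA, 5 kainate, 6 NMDA and 6 metabotropic glutamate (mGlu) receptor subunits together with 8 GABA-A and 2 GABA-B receptor subunits. All 31 were found among the 21975 genes of each table. RNA was sequenced from 37 libraries of cells captured with ACSA-2 beads (an astrocyte surface antigen) from 20 male wild-type mice, named CD1 in the methods and CD31 in the labels. Of these, 15 had received a controlled cortical impact (CCI), an open-skull contusion of the cortex on one side, and 5 a sham procedure. EEG recording had divided the CCI-injured mice into those that developed post-traumatic epilepsy (PTE+) and those that did not (PTE−), and all tissue was taken 4 months after surgery. The ipsilateral cortex gave 5 sham, 10 PTE− and 4 PTE+ libraries, and the contralateral cortex 5, 9 and 4. Each library is 1 hemisphere of 1 mouse, and 17 mice gave both hemispheres.

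Glutamate acts through ion channels and through G protein-coupled receptors. AMPA, kainate and NMDA receptors are tetrameric cation channels, AMPA receptors without an edited GluA2 subunit let calcium through, and NMDA receptors need the GluN1 subunit. The mGlu receptors signal through G proteins, mGlu3 being the form for which astrocytes are known in the adult brain. GABA-A receptors are pentameric chloride channels built from alpha, beta and usually gamma subunits, and GABA-B receptors are obligate pairs of the products of Gabbr1 and Gabbr2. Astrocytes sit around synapses, take up both transmitters and answer them through such receptors.

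The sequence just before the start of a gene is shown for the most abundant subunit of 4 families, since these genes carry most of the receptor transcript of the libraries. Each run is the 250 bases upstream of the RefSeq start (assembly GRCm38.p6), read 5′ to 3′ on the strand of the gene, and capitals mark matches to the GC box GGGCGG on either strand.
Grm3, mGlu, chr5:9725353-9725602, minus strand: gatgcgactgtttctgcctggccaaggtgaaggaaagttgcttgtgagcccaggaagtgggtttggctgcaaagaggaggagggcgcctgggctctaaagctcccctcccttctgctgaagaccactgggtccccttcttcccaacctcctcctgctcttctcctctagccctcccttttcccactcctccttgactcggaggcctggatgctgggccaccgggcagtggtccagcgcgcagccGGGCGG
Grin2c, NMDA, chr11:115267244-115267493, minus strand: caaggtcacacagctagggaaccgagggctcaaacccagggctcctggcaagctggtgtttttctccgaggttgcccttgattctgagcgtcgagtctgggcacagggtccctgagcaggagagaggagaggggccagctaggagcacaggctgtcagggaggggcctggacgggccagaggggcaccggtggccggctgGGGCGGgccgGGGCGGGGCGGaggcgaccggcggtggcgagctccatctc
Gria2, AMPA, chr3:80802836-80803085, minus strand: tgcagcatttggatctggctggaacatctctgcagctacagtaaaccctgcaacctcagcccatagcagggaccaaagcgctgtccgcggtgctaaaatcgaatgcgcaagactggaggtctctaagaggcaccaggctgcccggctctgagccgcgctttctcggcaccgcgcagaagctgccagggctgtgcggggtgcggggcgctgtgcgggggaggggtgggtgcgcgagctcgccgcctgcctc
Gabrg1, GABA-A, chr5:70842618-70842867, minus strand: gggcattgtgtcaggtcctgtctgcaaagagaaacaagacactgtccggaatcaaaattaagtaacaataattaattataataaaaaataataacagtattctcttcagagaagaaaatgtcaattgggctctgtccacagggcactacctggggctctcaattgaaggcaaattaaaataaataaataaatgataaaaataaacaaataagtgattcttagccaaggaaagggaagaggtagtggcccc
The Grin2c window held 3 matches to the GC box, some of which overlap, the Grm3 window held 1, and neither the Gria2 nor the Gabrg1 window held any. G and C made up 68.8% of the Grin2c window, 64.8% of that of Gria2, 62.4% of that of Grm3 and 35.6% of that of Gabrg1. Promoter sequence was at hand for 23 of the 31 genes, and 14 of them had a GC box in at least 1 of their windows, against 32.7% of all 32851 windows of the same length. Some genes have more than 1 window, so that the shares are not counted in the same way. The median share of G and C was 61.6% over the windows of these genes and 52.4% over all windows. Its part in the GC box matches was not tested. The cyclic AMP response element TGACGTCA was found for 0 of the 23 genes (1.5% of all windows), the AP-1 motif TGANTCA for 1, Grm8 (6.7%), and TATAAA for 2, Gabra3 and Gabrb2 (12.4%). Grin2a, Gria3, Gria1, Grin2b, Grm5, Grm4, Grik1 and Grin3a were not among the sequences.

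Expression is given as TPM, a unit which corrects for transcript length and scales each library to the same total, so levels can be set side by side between genes. TPM keep no sequencing depth, and the depth of each library is therefore unknown. The genes fell into 3 ranges by their mean TPM over the 37 libraries. There were 15 well expressed genes with at least 5 TPM, 11 intermediate genes with 1 to 5 TPM and 5 low genes under 1 TPM. Summed over the genes of a range, the mean levels came to 1061 TPM, 22.1 TPM and 2.03 TPM. The genes on either side of the upper limit were Grin1 at 5.31 TPM and Grm7 at 2.75 TPM, and those on either side of the lower limit were Gria4 at 1.3 TPM and Gabrb2 at 0.571 TPM.

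**Figure D1:**
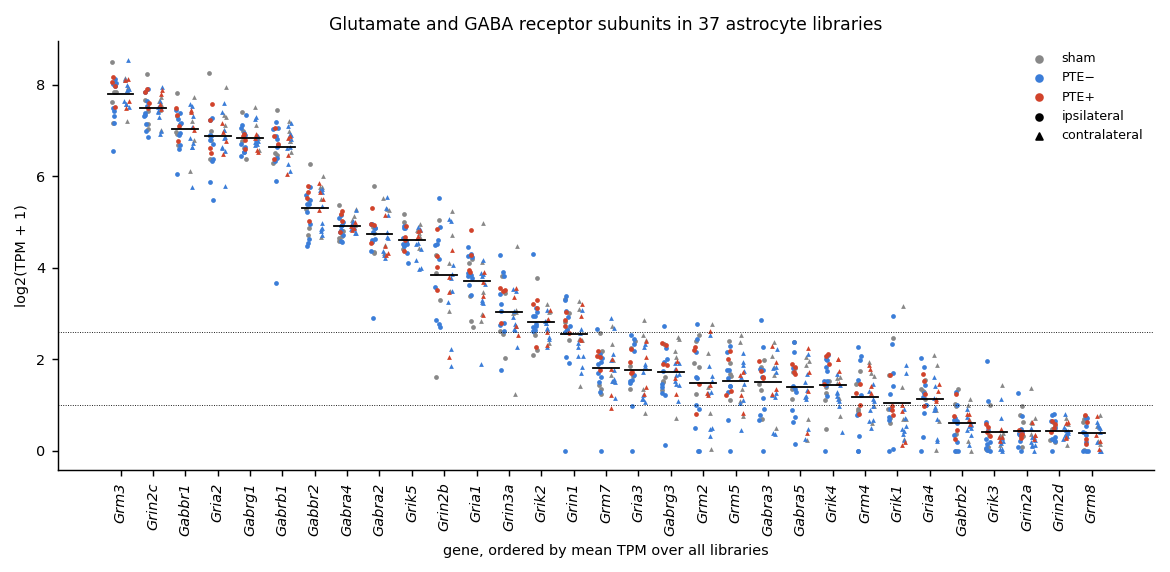
Level of each of the 31 receptor subunit genes in each library, as log2(TPM + 1), with genes ordered by mean TPM. Points are libraries (circles ipsilateral, triangles contralateral, colours the groups), black bars the mean, and dotted lines 5 and 1 TPM. The levels run from Grm3 with a mean of 227.3 TPM to Grm8 with 0.330 TPM, and several intermediate genes have 1 ipsilateral PTE− library at 0.

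1 gene supplied most of the transcript in each of 5 families. Among mGlu receptors it was Grm3, which encodes mGlu3, with at least 92.6% of the family's TPM in every library and a mean share of 96.1%. Among NMDA receptors Grin2c, the GluN2C subunit, made up a mean of 85.6% (72.6% to 95.3%). Gria2, the GluA2 subunit that keeps AMPA receptors impermeable to calcium, made up 86.8% of the AMPA family (64.4% to 96.2%). Grik5, a kainate subunit that needs a partner such as Grik2 to form a channel, made up 70.9%, and Gabbr1, the ligand-binding partner in the GABA-B receptor, 76.8%. No gene dominated the GABA-A family, where Gabrg1 led with 41.2% and Gabrb1 followed closely.

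The order of the levels was clear only at some steps. Grm3 exceeded Grin2c in 36 of 37 libraries, and Grin2c exceeded Gabbr1 (135.8 TPM) in 35 of 37. The next genes, Gabbr1, Gria2 (125.0 TPM), Gabrg1 (115.8 TPM) and Gabrb1 (104.2 TPM), did not differ from their neighbours by more than 1 SD of the difference within libraries. Gria2 was above Gabrg1 in 19 of 37 libraries. A clear step followed, with Gabrb1 above Gabbr2 (40.7 TPM) in 36 of 37 libraries. Gabra4 (29.5 TPM), Gabra2 (27.2 TPM), Grik5 (23.9 TPM), Grin2b (16.3 TPM) and Gria1 (13.1 TPM) again followed each other within 1 SD. Gria1 was above Grin3a (8.04 TPM) in 33 of 37 libraries, while Grin3a, Grik2 (6.38 TPM) and Grin1 did not separate. The obligate NMDA subunit Grin1 thus had a far lower level than Grin2c, its mean being 5.31 against 182.5 TPM. Among the intermediate genes none of the neighbours separated by more than 1 SD.

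The GABA-A subunits with high levels lie together in the genome. On chromosome 5 (GRCm38) Gabrg1 spans positions 70751047 to 70842617, Gabra2 70957597 to 71095849, Gabra4 71569749 to 71658308 and Gabrb1 71658113 to 72149037. The first 3 are on the minus strand and Gabrb1 is on the plus strand. Gabra4 and Gabrb1 overlap at their starts, so a read from the overlap can match both genes. Whether strand was used to divide such reads is not stated. The other GABA-A genes of the list were in the intermediate or low range: Gabrg3 2.49 TPM, Gabra3 2.07 TPM, Gabra5 1.86 TPM and Gabrb2 0.571 TPM.

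The libraries were checked against markers of the cell types that the bead isolation could hold. The 12 astrocyte markers summed to 17741 to 24614 TPM per library, and Aqp4, an astrocyte water channel, was never below 404.3 TPM. Other cells were present in all groups. The 12 neuron markers summed to 61.3 to 964 TPM, the 10 oligodendrocyte precursor markers to 17.6 to 166 TPM and the 10 oligodendrocyte markers to 520 to 4463 TPM. The 10 microglia markers summed to 114 to 570 TPM, the 10 endothelial markers to 332 to 2560 TPM and the 8 mural and fibroblast markers to 647 to 4921 TPM. The synaptic gene Snap25 was above 0 in all libraries, and Camk2a was at 0 in 1. The ipsilateral library of PTE− mouse 9_14 stood apart with 10727 genes above 0, and it held the lowest Gabrb1 level of all libraries, 11.8 TPM. It also had the highest sum of the mural and fibroblast markers, 4921 TPM. In bulk RNA, fewer cells of a type and less RNA per cell cannot be told apart.

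Several of the intermediate subunits followed the neuron markers from library to library. The level of each of the 26 genes with a mean of at least 1 TPM was set against the mean log2(TPM + 1) of the neuron, oligodendrocyte precursor and astrocyte markers in each hemisphere, which gave 156 relations with permutation p-values adjusted over all of them. Ipsilaterally (19 libraries), Gabra5, Grm2, Gabra3 and Gria3 had Pearson r with the neuron markers of 0.886, 0.872, 0.846 and 0.800, and Spearman rho of 0.861, 0.822, 0.846 and 0.667. The largest adjusted permutation p among these was 0.017, for the rho of Gria3. Contralaterally (18 libraries) the same genes had r of 0.780, 0.893, 0.861 and 0.722 and rho of 0.777, 0.903, 0.903 and 0.725, with adjusted permutation p of at most 0.00891. Without the 2 libraries farthest from the median neuron level, r was 0.818, 0.818, 0.714 and 0.607 ipsilaterally and 0.880, 0.910, 0.870 and 0.671 contralaterally. These subunits include an inhibitory presynaptic receptor of cortical terminals (Grm2) and alpha subunits of neuronal GABA-A receptors (Gabra3, Gabra5). The libraries of both hemispheres mostly come from the same mice, and the groups were pooled.

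The relation was not the same for the abundant subunits. Over the 15 well expressed genes the median r with the neuron markers was 0.012 ipsilaterally and 0.205 contralaterally, against 0.534 and 0.546 over the 11 intermediate genes. With the astrocyte markers the medians were 0.539 and 0.512 for the well expressed genes and 0.080 and 0.086 for the intermediate genes. Grm3 had r of 0.807 (rho 0.730, adjusted permutation p of 0.000669 and 0.00755) with the astrocyte markers contralaterally, and 0.726 without the 2 farthest libraries. Gabra4 had r of 0.748 (rho 0.694, adjusted permutation p of 0.00487 and 0.0122) with them ipsilaterally, and 0.735 without the 2 farthest. Both Grin1 (r of 0.752, rho 0.738, adjusted permutation p of 0.00455 and 0.0068) and Gria1 (r of 0.703, rho 0.705, adjusted permutation p of 0.00891 and 0.0122) followed the neuron markers contralaterally, with r of 0.758 and 0.657 without the 2 farthest libraries. Within the mice whose names begin with 8 or 9, a possible batch, r had the same sign for each of these relations, but was as low as 0.217 for Gria3 and 0.354 for Gabra4 ipsilaterally, 0.328 for Grin1 and 0.381 for Gria1 among 7 or 8 libraries. Gria2, Gabra2 and Gabrb1 rose and fell with the oligodendrocyte precursor markers ipsilaterally (r of 0.660, 0.765 and 0.760, rho of 0.579, 0.675 and 0.718, largest adjusted permutation p 0.0495), with r of 0.574, 0.569 and 0.654 without the 2 farthest libraries. Among the 7 libraries of mice with names beginning with 8 these r were 0.107, 0.206 and 0.182. Contralaterally they were 0.283, 0.547 and 0.249, with adjusted permutation p of 0.42, 0.0682 and 0.492. Ipsilateral Gria2 and Gabrb1 also followed the astrocyte markers, with r of 0.688 and 0.620, rho of 0.611 and 0.819, a largest adjusted permutation p of 0.036, and r of 0.627 and 0.598 without the 2 farthest libraries. These r with the astrocyte markers were 0.148 and 0.321 among the 7 libraries of mice with names beginning with 8. The part of other cells in the level of any subunit was not tested.

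**Figure D2:**
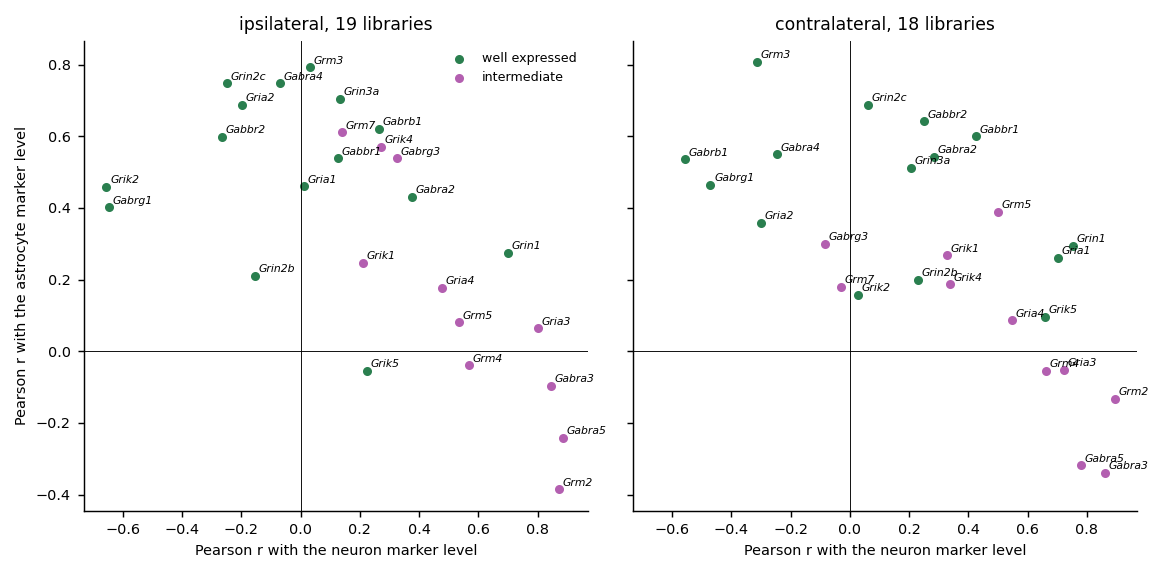
Pearson r of each gene's log2(TPM + 1) with the neuron marker level (horizontal axis) and with the astrocyte marker level (vertical axis) over the libraries of each hemisphere. Points are the 26 genes with at least 1 TPM, with well expressed genes in green and intermediate genes in purple. Grm2, Gabra3 and Gabra5 lie at the far right in both panels, and Grm3 lies at the top with r of 0.792 and 0.807, the first of which was -0.0622 among the 7 libraries of mice with names beginning with 8.

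To ask whether CCI injury changed the receptors, CCI-injured libraries (PTE+ and PTE− together) were compared with sham within each hemisphere by limma on log2(TPM + 1). A gene was tested where its mean exceeded 5 TPM in either group, and was counted as a DEG (differentially expressed gene) at an unadjusted p below 0.05 with a fold change of 1.2 or more, the thresholds of the study. All 15 well expressed subunits were tested and none of the other 16. In the ipsilateral cortex 1 of the 15 was a DEG, where 1.62% of all 10434 tested genes were. It was Gria1, the GluA1 subunit of AMPA receptors.

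Gria1 was higher in ipsilateral astrocytes of CCI-injured mice. The 5 sham libraries had 5.52, 6.17, 9.43, 16.1 and 17.2 TPM. The PTE− libraries ran from 9.59 to 21.0 TPM with a median of 13.5 TPM, and the 4 PTE+ libraries had 13.9, 14.5, 18.4 and 27.2 TPM. All 14 injured libraries lay above the sham median, and 6 lay above every sham library, so that the groups overlapped. Gria1 averaged 15.9 ± 4.57 TPM (SD, n = 14) after CCI and 10.9 ± 5.48 TPM (SD, n = 5) in sham. Its log2 fold change in limma was 0.59 with a standard error of 0.25, an unadjusted p of 0.0257 and an adjusted p of 0.9997, and the two-sided exact permutation p was 0.0246. The difference had the same sign among mice with names beginning with 8 (0.87) and with 9 (0.40). It rests on single sham libraries, the log2 fold change being 0.44 (p = 0.106 in limma) without sham mouse 8_15 and 0.41 (p = 0.122) without sham mouse 9_10. Without the library of PTE− mouse 9_14 it was 0.61. The oligodendrocyte markers summed to a median of 3091 TPM in ipsilateral sham, 1338 TPM in PTE− and 1431 TPM in PTE+ libraries, and the astrocyte marker level had medians of 9.54, 9.75 and 9.89 on the log2(TPM + 1) scale. Ipsilateral Gria1 had r of 0.460 with the astrocyte markers (rho 0.444, adjusted permutation p of 0.131 and 0.152, r of 0.399 without the 2 farthest libraries). Their part in the difference was not tested.

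In the contralateral cortex 1 of the 15 subunits was a DEG as well, where 4.05% of all 10556 tested genes were. Here it was Gria2, which was lower after CCI. The 5 sham libraries had 128.5, 138.6, 154.7, 161.4 and 244.0 TPM. The PTE− libraries ran from 54.0 to 191.7 TPM with a median of 113.7 TPM, and the PTE+ libraries had 88.9, 108.5, 123.5 and 141.6 TPM. Of the 13 injured libraries 10 lay below every sham library, while PTE− mice 9_16 and 8_14 had the highest injured levels and lay above the sham median. Gria2 averaged 117.1 ± 35.6 TPM (SD, n = 13) after CCI and 165.4 ± 45.8 TPM (SD, n = 5) in sham. Its log2 fold change in limma was -0.52 with a standard error of 0.21, an unadjusted p of 0.0208 and an adjusted p of 0.978, and the two-sided exact permutation p was 0.0355. Without sham mouse 9_11, which had the highest level, the log2 fold change was -0.37 (p = 0.101 in limma). The difference was -0.55 among mice with names beginning with 8 and -0.49 among those with 9. The oligodendrocyte precursor markers summed to a median of 107 TPM in contralateral sham, 59.0 TPM in PTE− and 59.7 TPM in PTE+ libraries. As mean log2(TPM + 1) their medians were 2.25, 2.22 and 2.07, and those of the astrocyte markers 9.76, 9.67 and 9.59. The part of these markers in the difference was not tested.

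**Figure D3:**
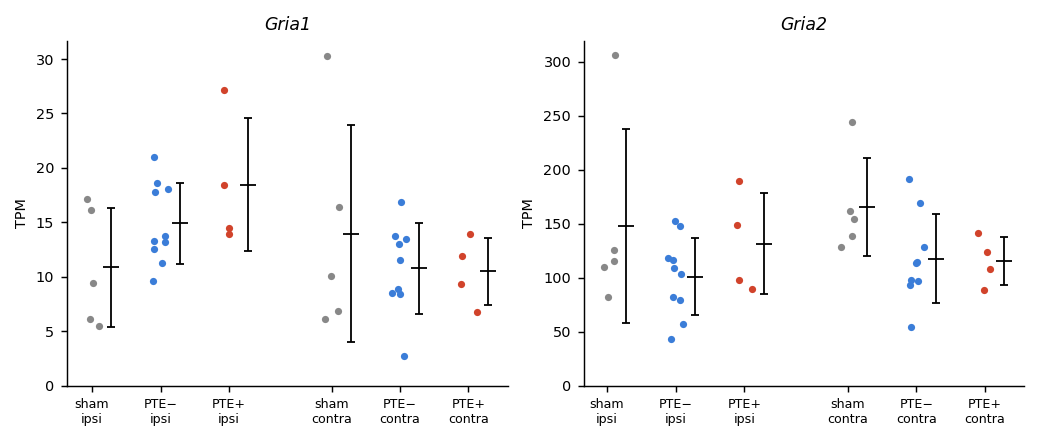
TPM of Gria1 and Gria2 in each library by group and hemisphere, with the mean and SD beside the points. Ipsilateral Gria1 averages 10.9 TPM in sham, 14.9 TPM in PTE− and 18.5 TPM in PTE+ libraries, and contralateral Gria2 averages 165.4, 117.7 and 115.6 TPM.

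On the opposite side neither gene was a DEG. Contralateral Gria1 had a log2 fold change of -0.22 with a standard error of 0.32 (p = 0.509 in limma), with sham libraries from 6.12 to 30.3 TPM. Ipsilateral Gria2 had -0.37 with a standard error of 0.29 (p = 0.226 in limma), with sham libraries from 82.3 to 306.3 TPM, the highest again being mouse 9_11. In the mice with both libraries, ipsilateral minus contralateral Gria2 was -0.09 in CCI-injured and -0.28 in sham mice on the log2 scale. The difference between CCI-injured and sham mice in this side difference was 0.19 (standard error 0.37, p = 0.610 in limma, 0.357 with the mouse as a replicate block, two-sided exact permutation p 0.403). The same test of Gria1 is given with the comparison of the hemispheres. The abundant receptors gave small differences. Grm3 had -0.09 (standard error 0.23) ipsilaterally and -0.01 (0.16) contralaterally, Grin2c -0.01 (0.19) and 0.00 (0.15), Gabrg1 -0.02 (0.15) and -0.16 (0.14), and Gabbr1 -0.12 (0.20) and -0.05 (0.25), all as log2 fold changes. Grin2b, the GluN2B subunit, varied widely among the ipsilateral sham libraries, from 2.07 to 32.0 TPM, and had 0.43 (standard error 0.48) and -0.56 (0.47).

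As a group, the 15 subunits had a median log2 fold change of -0.07 ipsilaterally, where the median of all tested genes was -0.01, and 5 of the 15 were above 0. Contralaterally the median was -0.18 against -0.07 for all genes, and 1 of the 15, Grin2c, was above 0. This direction depended on the scaling of the libraries. With quantile normalization the contralateral median was -0.07 (0.01 for all genes) with 2 of 15 above 0, and with each library centred on its median it was -0.08 (0.03 for all genes) with 5 of 15 above 0. Gria2 remained a DEG under both, with log2 fold changes of -0.52 and -0.42.

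**Figure D4:**
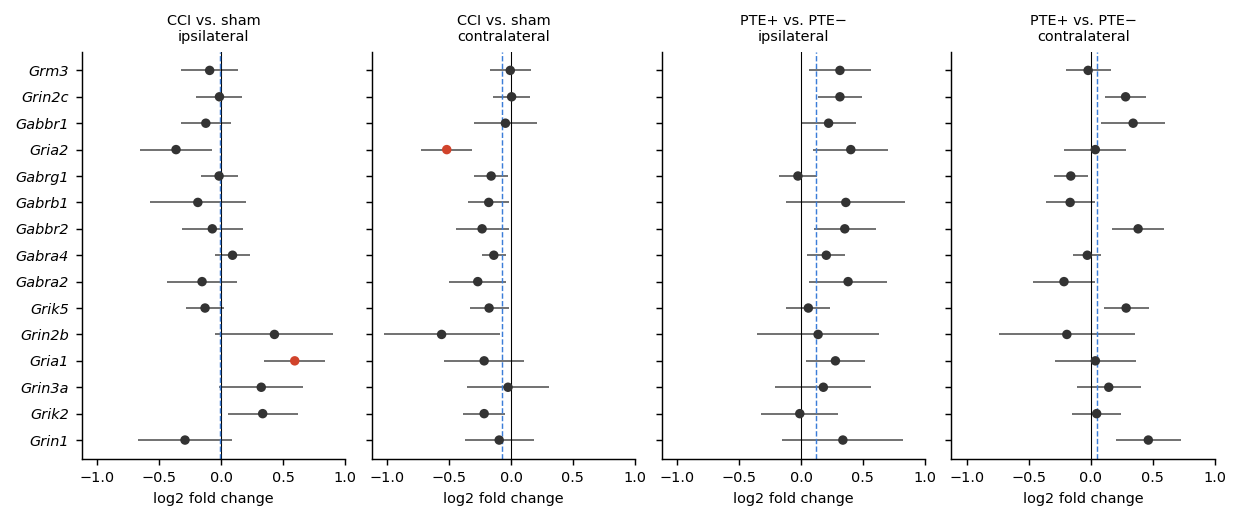
Log2 fold change of the 15 well expressed subunits in the 4 comparisons, with bars of 1 standard error from limma. Red points pass an unadjusted p under 0.05 with a fold of at least 1.2, and dashed blue lines mark the median of all tested genes. The only red points are Gria1 at 0.59 in the ipsilateral and Gria2 at -0.52 in the contralateral comparison of CCI with sham.

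PTE+ and PTE− mice were compared to ask whether receptor transcripts differed with the development of epilepsy. Ipsilaterally 0 of the 15 subunits were DEGs (0 at an unadjusted p under 0.05), where 0.573% of all 10473 tested genes were. In this comparison 13 of the 15 were higher in PTE+ mice, with a median log2 fold change of 0.28 against 0.12 for all genes. With quantile normalization 9 of 15 were higher and the median was 0.19 (0.01 for all genes), and without the library of PTE− mouse 9_14 the median was 0.17. Gria2 had 0.40 (standard error 0.30), Gabra2 0.38 (0.31) and Gabrb1 0.36 (0.48), and without the library of mouse 9_14 these were 0.32, 0.20 and 0.06. The smallest limma p was that of Grin2c, which had 178.1, 192.9, 226.9 and 239.2 TPM in PTE+ mice and 114.5 to 237.3 TPM, with a median of 163.5 TPM, in PTE− mice. All of the PTE+ values were above the PTE− median, but the log2 fold change of 0.31 (standard error 0.18) had a limma p of 0.0961. It became a DEG without PTE− mouse 9_12 (0.37, p = 0.05 in limma after rounding up) or 9_15 (0.37, p = 0.0425).

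Contralaterally 0 of the 15 subunits were DEGs (0 at an unadjusted p under 0.05), where 2.79% of all 10423 tested genes were. The median log2 fold change was 0.04 against 0.05 for all genes. Grin1, the subunit that every NMDA receptor needs, had 0.46 with a standard error of 0.26 (p = 0.0982 in limma). It had 4.32, 4.45, 6.65 and 8.26 TPM in PTE+ mice and 2.23 to 7.43 TPM, with a median of 3.82 TPM, in PTE− mice, and it was tested only because of its PTE+ mean of 5.92 TPM, the PTE− mean being 4.09 TPM. Gabbr2 had 0.38 (0.21), Gabbr1 0.34 (0.26), Grik5 0.28 (0.18) and Grin2c 0.28 (0.16). Single PTE− mice changed the calls: without 9_13 both Grin1 (0.56, p = 0.0383 in limma) and Gabbr2 (0.45, p = 0.0433) were DEGs, without 9_15 Gabbr2 (0.45, p = 0.047), and without 9_16 Grin2c (0.35, p = 0.030).

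A pair of intermediate genes, below the 5 TPM limit in every group, separated the contralateral PTE groups more than any well expressed subunit. Grik4, a high-affinity kainate subunit, had 1.80, 2.33, 2.99 and 3.01 TPM in PTE+ mice and 0.320 to 2.17 TPM, with a median of 1.28 TPM, in PTE− mice. Of the 4 PTE+ libraries 3 lay above every PTE− library. The means were 2.53 ± 0.582 TPM (SD, n = 4) and 1.28 ± 0.509 TPM (SD, n = 9), the difference was 0.65 on the log2(TPM + 1) scale, and the two-sided exact permutation p was 0.0042. Grm4, a presynaptic inhibitory mGlu receptor, had 1.41, 1.65, 2.43 and 2.64 TPM in PTE+ mice and 0.410 to 1.73 TPM, with a median of 0.960 TPM, in PTE− mice. Of the PTE+ libraries 2 lay above every PTE− library, and the difference was 0.62 with a two-sided exact permutation p of 0.00979. Both held the same sign among mice with names beginning with 8 (0.77 and 0.64) and with 9 (0.56 and 0.61). When genes down to 1 TPM were tested, both were DEGs among the 25 subunits tested, where 2.95% of all 13422 genes were, and their adjusted p in limma was 0.999. Grm4 entered that test only through its PTE+ mean of 2.03 TPM, its PTE− mean being 0.981 TPM. Ipsilaterally the difference was 0.35 for Grik4 and 0.03 for Grm4 on the same scale, with two-sided exact permutation p of 0.317 and 0.96. Contralateral Grm4 had r of 0.661 with the neuron markers (rho 0.680, adjusted permutation p of 0.0181 for both, r of 0.661 without the 2 farthest libraries). Its r was 0.0831 among the 8 libraries of mice with names beginning with 8 and 0.852 among the 10 of those with 9. The neuron markers summed to 183 to 870 TPM (median 459 TPM) in PTE+ and 61.3 to 919 TPM (median 290 TPM) in PTE− libraries. Their part in the difference was not tested.

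The low gene Grin2a, the GluN2A subunit of mature neuronal NMDA receptors, was lower in contralateral CCI-injured libraries. Sham libraries had 0.290, 0.510, 0.550, 0.630 and 1.57 TPM. Injured libraries ran from 0 to 0.540 TPM, and 11 of 13 lay below every sham library. The difference was -0.47 on the log2(TPM + 1) scale, with a two-sided exact permutation p of 0.000817. The highest sham level, 1.57 TPM, was that of mouse 9_11. Ipsilaterally the difference of Grin2a was -0.15, with an exact permutation p of 0.386. By the exact permutation test, 1 of the 31 subunits (Gria1) had a p under 0.05 for CCI against sham ipsilaterally and 2 (Gria2 and Grin2a) contralaterally. The same test gave 2.5% and 4.88% of the 14763 genes whose mean was at least that of the lowest subunit, so that these shares were near those of all genes.

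Both hemispheres of a mouse share the animal, which gives a closer comparison of the injured with the opposite side. In the 12 CCI-injured mice with both libraries 1 of the 15 subunits was a DEG between ipsilateral and contralateral astrocytes, where 2.16% of all 10350 tested genes were. It was again Gria1, with a log2 fold change of 0.60 and a standard error of 0.23 (p = 0.0145 and adjusted p = 0.9997 in limma). That count, standard error and p come from a fit that does not pair the hemispheres of a mouse. Ipsilateral Gria1 was higher in 10 of the 12 mice, and the difference ran from -0.19 to 1.52 on the log2 scale with a median of 0.61. All 3 PTE+ mice (0.59, 0.92 and 0.98) and 7 of the 9 PTE− mice had the higher level on the injured side. With the mouse as a replicate block the standard error was 0.14, the p 0.000349 and the adjusted p 0.0937 in limma, and the two-sided exact permutation p from sign changes within mice was 0.00293. Leaving out each injured mouse in turn, chosen as a check after the values were seen, gave means from 0.52 (without mouse 9_12) to 0.67 and exact p from 0.00195 to 0.00586.

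**Figure D5:**
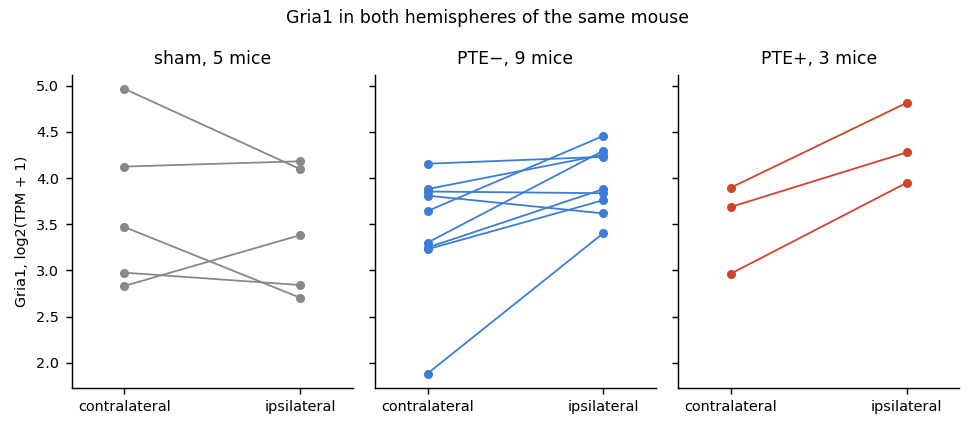
Gria1 as log2(TPM + 1) in the contralateral and the ipsilateral cortex of the same mouse, one line for each of the 17 mice with both libraries. The ipsilateral level was higher in 3 of 3 PTE+ mice, 7 of 9 PTE− mice and 2 of 5 sham mice.

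The replicate block brought the DEGs among the 15 subunits to 3, where 4.59% of all genes were called in that fit. The added genes were NMDA subunits, Grin3a at 0.42 (standard error 0.17, p = 0.0216, adjusted p = 0.444 in limma) and Grin1 at 0.29 (0.13, p = 0.0384, adjusted p = 0.508). Grin1 passed the 5 TPM filter only through its ipsilateral mean, 5.87 TPM against 4.67 TPM contralaterally, so that the count of 3 was helped by the filter. Grin3a, which lowers calcium entry through NMDA receptors, was higher ipsilaterally in 10 of 12 injured mice and Grin1 in 8 of 12. In the 5 sham mice 0 of the 15 were DEGs between the hemispheres (0 at an unadjusted p under 0.05 without the block), where 2.96% of all genes were. Gria1 was higher ipsilaterally in 2 of the 5 sham mice, with a mean difference of -0.23 ± 0.59 (SD) on the log2 scale. Markers of other cells also differed between the sides. The summed oligodendrocyte precursor markers were higher ipsilaterally in 10 of 12 injured and 1 of 5 sham mice, the microglia markers in 10 of 12 and 2 of 5, and the oligodendrocyte markers in 4 of 12 and 2 of 5. As mean log2(TPM + 1), the precursor markers were higher ipsilaterally in 9 of 12 injured (mean difference 0.322 ± 0.414, SD) and 3 of 5 sham mice (0.049 ± 0.295). The astrocyte markers on that scale were higher ipsilaterally in 8 of 12 injured (0.096 ± 0.181, SD) and 1 of 5 sham mice (-0.11 ± 0.235). Summed, they were higher in 6 of 12 and 2 of 5. The neuron markers were higher in 6 of 12 and 3 of 5 on both scales. The summed endothelial markers were higher in 3 of 12 and 2 of 5. The part of any of these markers in the side differences was not tested.

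The difference between CCI-injured and sham mice in this side difference was tested directly. It was 0.83 for Gria1, with a standard error of 0.43 and p = 0.061 in the unpaired limma fit, where 0 of 15 subunits (0 at an unadjusted p under 0.05) and 1.93% of all genes were called. With the replicate block the standard error was 0.26, the p 0.00418 and the adjusted p 0.569, Gria1 being the 1 subunit called where 6.5% of all genes were, and the two-sided exact permutation p over mice was 0.00921. Without each mouse in turn the difference ran from 0.68 to 1.03, with exact p up to 0.0385. Without PTE− mouse 8_14 Grin2b was called too, in the injured side difference (0.93, p = 0.019 in limma) and in its difference from sham (1.43, p = 0.0413). By the exact permutation test of this difference 3 of the 31 subunits had a p under 0.05 (Gria1, Grik4 and Grin2a), where 7.51% of the 14763 genes did. The PTE effect was compared between the hemispheres in the 3 PTE+ and 9 PTE− mice with both libraries. Here 0 of the 15 subunits were called (0 at an unadjusted p under 0.05), where 0.571% of all genes were, and the replicate block left the count at 0. By exact permutation over these mice 1 of the 31 subunits, Grin1, had a p under 0.05, where 2.8% of the 14763 genes did. In both exact tests the share of the 31 subunits was near that of all genes.

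The other genes of these receptor systems were taken from 7 lists of 62 genes: 14 AMPA auxiliary proteins, 2 kainate auxiliary proteins, 2 delta receptors, 13 further subunits, 17 scaffolds, 3 GABA-B auxiliary proteins and 11 genes that couple mGlu receptors to G protein signalling. Of these 29 passed the filter in the ipsilateral comparison of CCI with sham and 32 in the contralateral one, with medians of -0.13 and -0.16 on the log2 scale. Between PTE+ and PTE− mice, 29 were tested ipsilaterally and 33 contralaterally. Of these 0 were DEGs on either side, where 0.573% and 2.79% of all tested genes were. After CCI 0 of the 29 were DEGs ipsilaterally, where 1.62% of all tested genes were. Contralaterally 1 of the 32 was a DEG, near the share of 4.05% of all tested genes. This was Plcb4, a phospholipase C that acts downstream of Gq-coupled receptors. Contralaterally it had 16.7 ± 3.65 TPM (SD, n = 5) in sham and 11.2 ± 4.09 TPM (SD, n = 13) in injured libraries. Its log2 fold change was -0.58 with a standard error of 0.22 (p = 0.0154 and adjusted p = 0.978 in limma).

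The scaling also moved the balance of all calls. Of the DEGs in the contralateral comparison of CCI with sham 57 were higher and 371 lower as deposited, and 203 and 156 with quantile normalization. Contralaterally between PTE+ and PTE− they were 203 and 88 as deposited, and 125 and 261 with quantile normalization. Ipsilaterally the DEGs of CCI against sham were 129 higher and 40 lower as deposited, and 201 and 117 with quantile normalization, and those of PTE+ against PTE− mice 34 and 26, and 45 and 90.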

How the data were processed

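Cortical astrocytes of 37 hemispheres were analysed at 4 months after surgery. The authors trimmed reads with Trim Galore (0.6.4), mapped them to mm10 with Bowtie2 (2.4.1), estimated expression with RSEM (1.2.28) and deposited TPM per Ensembl gene, 1 table per hemisphere; their own comparisons used DESeq2 (1.36.0) on counts, which were not used here. Per the labels and methods, libraries were made with SMART-Seq v4 and 1 library is 1 hemisphere of 1 mouse. TPM keep no depth, so no counting interval could be given and the precision of each library is unknown.

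Symbols and positions came from GENCODE vM21 (GRCm38), which named 21856 of 21975 genes, and upstream sequences from RefSeq. log2(TPM + 1) was fitted with limma (3.58.1, R 4.3.3) with a variance trend, on genes whose mean exceeded 5 TPM in either group. DEGs had an unadjusted p below 0.05 with a fold of 1.2 or more; adjusted p-values are Benjamini-Hochberg over all tested genes. Fold changes on this scale understate changes of low genes. Single genes were tested by two-sided exact permutation in Python (3.11.15, scipy 1.17.1), correlations with 100000 permutations. The hemispheres of 1 mouse are paired by the mouse name in the labels: the deviations from group means of the 17 pairs correlated with a median of 0.41 (0.04 to 0.69), those of different mice of a group with -0.10. Fits with the mouse as a block, other scalings, filters, pseudocounts and left-out libraries were the alternatives. All 31 subunits are named, and other receptor genes only where called. The subunits, gene lists and tests were chosen with earlier results of these data known, and the fits were tested on simulated data.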

Additional observations from a re-analysis of the deposited data

Results flagged for a closer look

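Of 156 combinations of a subunit with a group and hemisphere, 12 had 1 library far from the rest of its group on the log2(TPM + 1) scale, where chance sets apart about 1 in 20 groups. In 6 of them it was the ipsilateral PTE− library 9_14. It had 6.46 TPM of Gabra2, where the other PTE− mice had 19.4 to 30.2 TPM, and 11.75 TPM of Gabrb1, where they had 58.7 to 144 TPM. Grin1, Grik4 and Grm7 were listed at 0 in it, whereas Grik2 was high at 18.68 TPM, the others having 5.09 to 7.69 TPM. Grm3, Grin2c and Gabrg1 of that library were not set apart by this rule. Even so, its Grm3 level of 92.9 TPM was the lowest of all libraries. Its Gabrg1 level of 160.4 TPM was the highest of the ipsilateral PTE− libraries.

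The remaining libraries were single cases. Contralateral Gria1 was 2.69 TPM in PTE− mouse 9_12 and 8.38 to 16.8 TPM in the other PTE− mice. Among sham mice, Gabrg3 was 0.65 TPM contralaterally in mouse 9_10 (others 3.13 to 4.56 TPM) and 4.03 TPM ipsilaterally in mouse 9_11 (others 1.51 to 2.05 TPM), and contralateral Grm3 was 147.26 TPM in mouse 8_16 (others 233.3 to 281.2 TPM). Among PTE+ mice, ipsilateral Grin3a was 5.9 TPM in mouse 8_10 (others 10.3 to 10.8 TPM) and contralateral Grm2 was 5.1 TPM in mouse 9_18 (others 1.33 to 1.69 TPM).

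The side difference (ipsilateral minus contralateral, log2 scale) was compared between groups by exact permutation. Between CCI-injured and sham mice 3 of 31 subunits had a p under 0.05, where 7.51% of 14763 genes did. Between PTE+ and PTE− mice 1 of 31 did, where 2.8% of these genes did. Both shares were near those of all genes. CCI-injured exceeded sham mice by 0.8347 for Gria1 (exact p = 0.00921), by 0.5934 for Grik4 (exact p = 0.0262) and by 0.3966 for Grin2a (exact p = 0.0174). Grik4 was higher on the injured side in 9 of 12 injured and 2 of 5 sham mice, and Grin2a in 11 of 12 and 1 of 5. Grin2a had a very low level, with means of 0.397 TPM ipsilaterally and 0.178 TPM contralaterally in these injured mice. Some of its side differences were close to 0, the median of the 3 PTE+ mice being 0.023. For Grin1 the side difference of PTE+ mice was -0.5782 relative to PTE− mice (exact p = 0.0364), being positive in 1 of 3 PTE+ and 7 of 9 PTE− mice. The limma fit with the replicate block gave p = 0.0578 for Grin1. The summed oligodendrocyte precursor markers were higher ipsilaterally in 10 of 12 injured and 1 of 5 sham mice. As mean log2(TPM + 1) they were higher in 9 of 12 injured and 3 of 5 sham mice. The part of these markers was not tested.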

How the results depend on the processing

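Adjusted p-values left no subunit under 0.05 in any of the 4 comparisons within a hemisphere, and TPM give no depth with which to judge low genes. Of 108 recounts of called subunits 85 stayed within 1.5 times the reported count, as did 70 of 77 added after the values were seen, which left out each remaining PTE− or PTE+ library or mouse. The share of all genes called also moved with the setting, so that a higher count need not mean more change among the subunits. For CCI versus sham ipsilaterally that share was 1.62%, and 3.83% without PTE− mouse 9_14. For the injured side difference it was 2.16%, and 4.59% with the replicate block. The counts that follow are not set against this share. Array weights gave 2 for CCI versus sham ipsilaterally, 1 for PTE+ versus PTE− ipsilaterally, 3 for the injured side difference, 1 for the sham side difference and 3 for the difference between them. Without a filter the counts were 2 for CCI versus sham contralaterally (Grin2a added) and for PTE+ versus PTE− contralaterally, 2 for the injured side difference (Grik4 added) and 1 for the difference between injured and sham, and a filter at 1 TPM gave 2, 2 and 1 for the last 3. A fold of 1.5 left 0 for CCI versus sham contralaterally. The replicate block, pairing the hemispheres of a mouse, gave 3 for the injured side difference and 1 for the difference between injured and sham, and changed no other count. Leaving out 1 library or mouse at a time gave 0 to 2 for CCI versus sham on either side, 0 to 2 for the sham side difference and for the difference between injured and sham, 1 to 2 for the injured side difference, 0 to 1 for PTE+ versus PTE− ipsilaterally, 0 to 2 for it contralaterally, and 0 throughout for the PTE effect between hemispheres. Ipsilaterally Gria1 was lost without sham 8_15 or 9_10 and Grik2 was added without 9_11; contralaterally Gria2 was lost without 9_11 and Gabbr2 was added without 8_16. For the difference between injured and sham, Gria1 was added without sham 8_16 or PTE− 8_14, Grin2b without 8_14, and Gabra4 and Grik2 without sham 9_11, which also added both to the sham side difference. For the log2 fold changes, 804 planned recalculations kept sign and call, 4 lost and 10 gained a call, 74 uncalled ones changed sign and 0 called ones did. The causes were not tested.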
